A study of Mus musculus with 12 samples.

Results

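The miRNAs described here are those whose array names begin with miR-297, miR-466, miR-467 or miR-669, followed by any letter, arm or star suffix. They number 39 of the 611 mouse miRNAs on the array, with 3 of miR-297, 14 of miR-466, 10 of miR-467 and 12 of miR-669. They were measured in embryonic fibroblasts of C57BL/6 mice, with genotype labels ATF6bWT (wild type) and ATF6bKO (knockout). ATF6b is a transcription factor held in the membrane of the endoplasmic reticulum, and it is released when unfolded proteins build up there. Cells of each genotype were left untreated or were given tunicamycin, an inhibitor of N-linked glycosylation that brings on this stress, at 2 ug/mL for 12 h or 24 h. Each of the 6 groups has 2 arrays, from 2 experiments that the series calls independent, and the design text asks for miRNAs whose 12 h response needs ATF6b. The age of the embryos, the number of cell lines and the part of the gene deleted are not given in the sources used here. The p-values therefore measure only the spread between experiments, which here includes the session in which an array was scanned.

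A miRNA is a short RNA that guides silencing proteins to partly matching messenger RNAs, mostly through the bases near its 5′ end called the seed. In the mouse, many miRNAs of these families are cut from a long run of tandem hairpins inside an intron of Sfmbt2, a polycomb-related gene that is imprinted and active in placenta and early embryo. The hairpins resemble one another, lie in sequence rich in simple repeats and are known from rodents. A star marks the arm of a hairpin that was regarded as the minor product.

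The name of the Sfmbt2 cluster covered most members but not all. By the RefSeq gene names, 29 of the 39 members lie inside Sfmbt2 on chromosome 2, 5 lie only elsewhere (miR-466i, miR-466j, miR-466k, miR-467f and miR-467g), 3 have copies in both places (miR-297a*, miR-466f-3p and miR-466f-5p), and 2 had no matching gene name (miR-466a-3p and miR-466a-5p). Several members are made from many copies, such as 12 of miR-669a and 10 of miR-467a, and an array cannot tell the copies apart. The members are therefore called by their family names here.

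Mature sequences are shown for how alike the members are. RefSeq sequences on build GRCm38.p6 were at hand for 4 members under their exact names, and for miR-466i as its 3p arm, an arm that the array name does not give. The 5 members below are followed by 3 miRNAs outside the families, shown because their levels followed those of most members. Each reads 5′ to 3′ with the seed, bases 2 to 8, in capitals.
miR-467f: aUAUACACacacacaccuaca
miR-467g: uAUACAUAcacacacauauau
miR-466i: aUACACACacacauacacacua
miR-466j: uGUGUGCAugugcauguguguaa
miR-466k: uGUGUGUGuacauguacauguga
miR-574-5p: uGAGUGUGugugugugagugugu
miR-1187: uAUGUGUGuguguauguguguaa
miR-574-3p: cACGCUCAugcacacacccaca

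miR-467f lies at chr11:69635419-69635439 on the minus strand, miR-467g at chr5:34732872-34732892 on the minus strand, and miR-466i at chr13:17747552-17747573 on the plus strand. miR-466j lies at chr10:60960802-60960824 and miR-466k at chr3:85467396-85467418, both on the plus strand. Each of the 5 members has a seed of its own. miR-467f, miR-467g and miR-466i hold the motif ACACACA, which only 0.298% of the 1679 mature miRNAs in the table hold, and miR-466j and miR-466k hold its complement UGUGUGU, found in 0.655%. Each motif was searched on the mature strand only. miR-467f and miR-466i share an unbroken stretch of 13 bases. miR-467g shares 11 bases with each of those 2. A stretch of 15 bases of miR-466i is complementary to miR-1187, and a stretch of 12 bases of miR-467f is complementary to miR-574-5p. Members with such alike sequences may bind one another's probes, so the assignment of signal to a single member is uncertain.

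Levels are given as a percent of a reference level, which is the 75th percentile of that array's intensity over the 93 miRNAs detected on all 12 arrays. The reference level stood at 412 to 623 intensity units on 9 arrays. It was lower on 3 arrays of replicate 2, at 208 in knockout cells after 24 h, 246 in knockout cells after 12 h and 257 in wild-type cells after 24 h. The file headers place untreated arrays on 1 slide and treated arrays on the other, which leaves no way to separate slide from treatment (they cannot be told apart). On each slide the replicates differ by scan session, which holds both genotypes: sessions 1 and 2 for untreated replicates 1 and 2, and sessions 3 and 4 for treated replicates 1 and 2. The genotypes also lie in different rows of the slide, so row and genotype cannot be told apart. Of 10 fibroblast markers, 8 to 10 were detected on each array, while none of 6 blood markers and not the liver marker were. Epithelial markers (7 miRNAs, the miR-200 family with miR-203 and miR-205) were detected on no wild-type or untreated knockout array, but 3 to 4 of them were detected on each treated knockout array, at 1.96% to 2.90% of the mouse signal.

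Most members were faint or not detected. The scanner software marked 5 members as detected on all 12 arrays (miR-466f-3p, miR-466i, miR-467a*, miR-467f and miR-669f) and 19 on none, among them miR-466j and miR-466k. The highest value of any of those 19 was 4.77%, and 19 of their 228 array values lay above the floor of 1.91% that was applied before taking logs. Another 6 were detected too rarely to be tested. Of these, miR-297a*, miR-466h, miR-669d and miR-669e were detected on 1 array, which for each was wild type at 12 h, replicate 2. miR-467c was detected on 1 array, wild type at 24 h, replicate 1. miR-669h-3p was detected on 2 arrays, replicate 2 of wild type at 12 h (23.8%) and at 24 h (14.98%), and it stood at 0.410% and -0.380% on replicate 1 of those groups (values below 0 arise where background exceeds signal). In 1 group or more, the remaining 14 were detected on both arrays, and they were tested with 162 other miRNAs. They comprise 5 of miR-466, 6 of miR-467, 3 of miR-669 and none of miR-297. miR-467b*, miR-467e* and miR-467g passed that filter only through wild-type cells at 12 h.

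**Figure D1:**
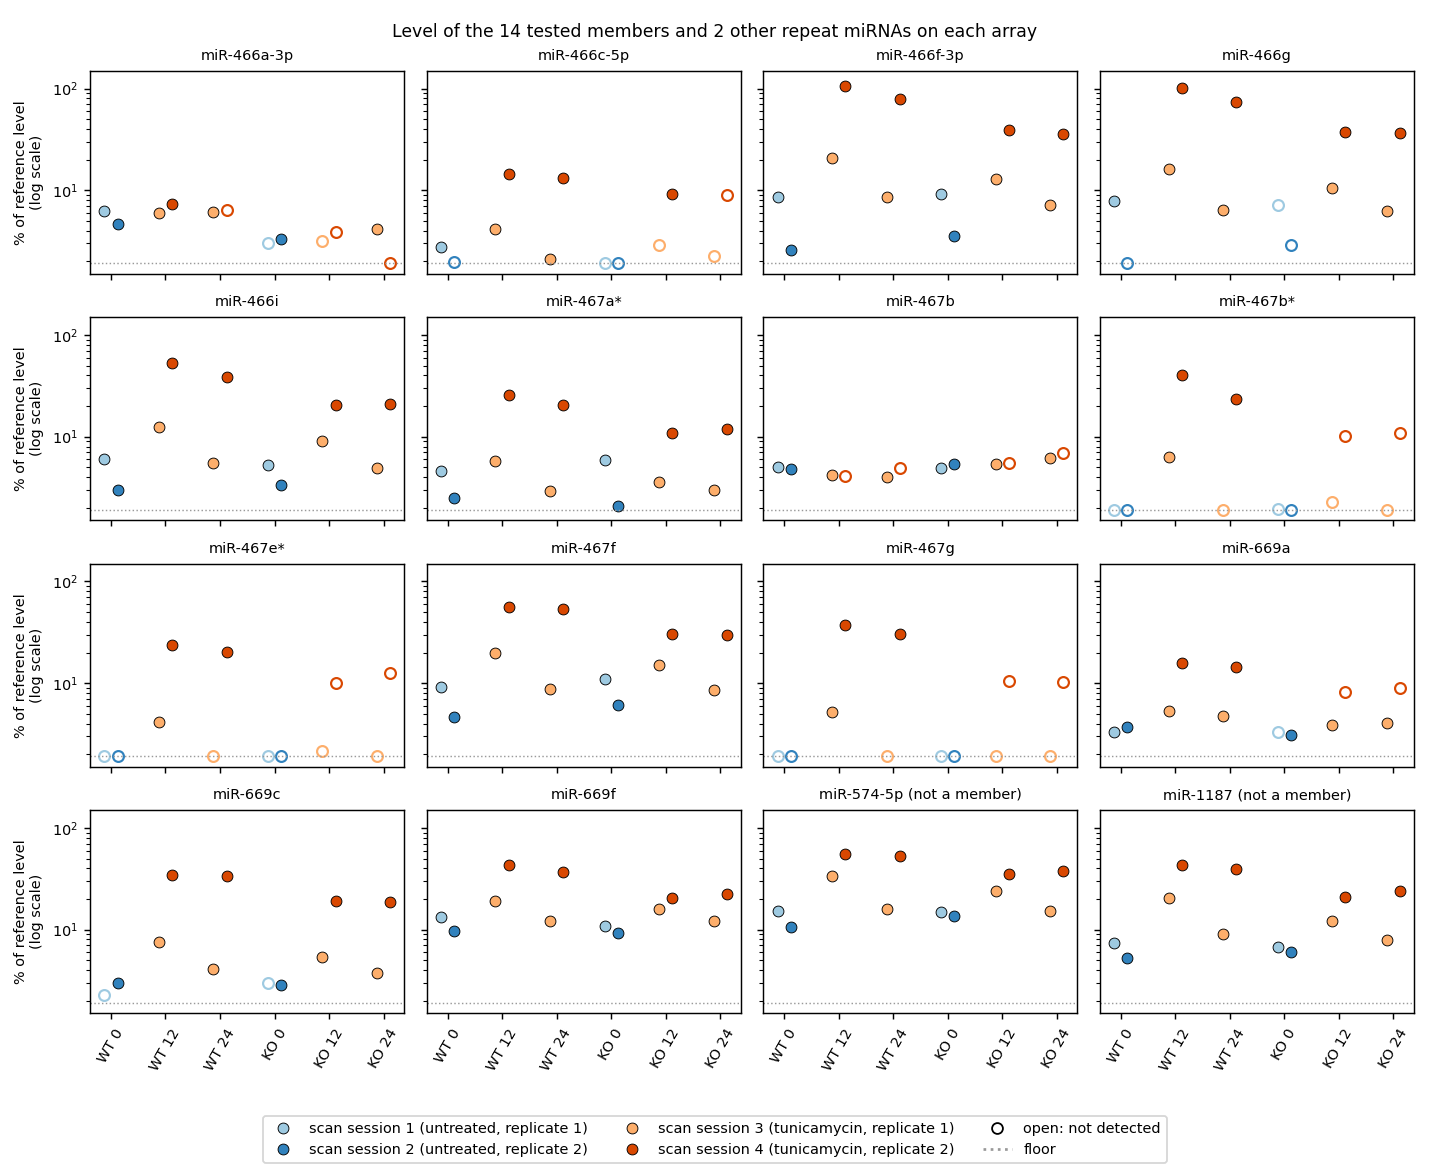
Level of each tested member and of miR-574-5p and miR-1187 on the 12 arrays, in percent of the reference level on a log scale, for wild type (WT) and knockout (KO) at 0 (untreated), 12 and 24 h of tunicamycin. Points are single arrays coloured by scan session, open points were not detected, values under the floor (dotted line, 1.91%) are drawn on it, and in 12 of the 14 members the session 4 array lies above the session 3 array in every treated group.

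The members of miR-466 give the plainest view of the pattern. In the order replicate 1 and replicate 2, miR-466f-3p stood at 8.64% and 2.61% in untreated wild-type cells, 20.5% and 106% at 12 h, and 8.59% and 79.8% at 24 h. In knockout cells it stood at 9.23% and 3.58% untreated, 13.0% and 39.2% at 12 h, and 7.09% and 35.8% at 24 h. The second treated array was high in each treated group, while the first lay above the untreated arrays at 12 h and below the higher of them at 24 h. In wild-type cells at 12 h the mean of 63.0% therefore carries a spread of 60.1 (SD, n = 2), against 5.62% ± 4.27 (SD, n = 2) untreated.

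miR-466g, whose hairpin lies in Sfmbt2, stood at 7.76% and 1.65% untreated, 16.3% and 102% at 12 h, and 6.33% and 73.9% at 24 h in wild-type cells. Its knockout values were 7.13% and 2.90% untreated, neither called detected, then 10.4% and 37.5%, and 6.25% and 36.5%. The gap between the replicates in treated cells was again wider than the gap between the first treated array and untreated cells. miR-466i, encoded on chromosome 13, stood at 6.09% and 2.96%, 12.5% and 52.5%, and 5.54% and 38.8% in wild-type cells. The knockout series was 5.30% and 3.33%, 8.98% and 20.7%, and 4.97% and 20.9%. In this member encoded outside Sfmbt2, too, the second treated array lay above the first in each treated group. miR-466c-5p was fainter, at 2.76% and 1.96%, 4.12% and 14.4%, and 2.09% and 13.3% in wild-type cells. Its knockout values were 0.335% and 1.83%, 2.90% and 9.22%, and 2.28% and 8.98%, and only the 9.22% was on an array that called it detected.

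Star strands of miR-467 behaved alike. miR-467a* was at 4.57% and 2.48% untreated, 5.72% and 25.8% at 12 h, and 2.95% and 20.5% at 24 h in wild-type cells. The knockout values were 5.94% and 2.10%, 3.57% and 10.9%, and 3.01% and 11.8%. On the first treated arrays it lay inside the untreated range, except in wild type at 12 h. miR-467b* was not detected in untreated wild-type cells, at 0.843% and -1.15%, and stood at 6.32% and 40.4% at 12 h and at -0.381% and 23.7% at 24 h. In knockout cells it was detected on no array, at 1.94% and -0.751% untreated, 2.27% and 10.2% at 12 h, and -0.280% and 10.8% at 24 h. No fold against untreated cells is given for it, since no untreated and no knockout array detected it. Log2 differences given for it below use values that were not detected, some of them set to the floor. miR-467e* had 0.763% and -0.533%, 4.14% and 23.5%, and 0.258% and 20.05% in wild-type cells. Its knockout values, on arrays that did not detect it, were highest at 24 h, with 12.6% on replicate 2 against -0.596% on replicate 1.

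The 2 members of miR-467 with a single known locus outside Sfmbt2 did likewise. miR-467f stood at 9.23% and 4.67% untreated, 20.02% and 56.3% at 12 h, and 8.79% and 53.1% at 24 h in wild-type cells. Knockout values of miR-467f were 10.96% and 6.15%, 14.99% and 30.4%, and 8.65% and 29.5%. It was detected on every array, so its treated replicates differed far above the detection limit. miR-467g was undetected on both untreated wild-type arrays, at 0.707% and -0.363%, and stood at 5.15% and 37.2% at 12 h. At 24 h it stood at 1.18%, undetected, and 30.4%. In knockout cells miR-467g was detected on no array, and its values of 10.5% and 10.3% on the second treated arrays compare with 1.47% and 0.633% on the first.

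In the miR-669 family, miR-669a was at 3.30% and 3.72%, 5.37% and 15.7%, and 4.76% and 14.3% in wild-type cells, and at 3.32% and 3.10%, 3.87% and 8.09%, and 4.07% and 8.98% in knockout cells. miR-669c was at 2.29% and 2.97%, 7.64% and 34.6%, and 4.13% and 33.5% in wild-type cells, and at 2.96% and 2.86%, 5.38% and 19.0%, and 3.76% and 18.5% in knockout cells. Both had every treated array above both untreated arrays in each genotype, at 12 h and at 24 h. miR-669f was at 13.3% and 9.61%, 19.3% and 43.1%, and 12.2% and 36.8% in wild-type cells. In knockout cells miR-669f was at 10.9% and 9.17%, 16.0% and 20.6%, and 12.2% and 22.5%. Its treated arrays exceeded the untreated arrays except for the first wild-type array at 24 h.

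Just 2 tested members departed from this picture. miR-466a-3p stood at 6.26% and 4.63% untreated, 6.01% and 7.38% at 12 h, and 6.12% and 6.39% at 24 h in wild-type cells. In knockout cells it stood at 3.04% and 3.28%, 3.14% and 3.92%, and 4.16% and 1.35%. Its replicates lay close together on all but the last pair, and each knockout array was below each wild-type array. miR-467b stood at 5.07% and 4.86%, 4.15% and 4.10%, and 4.05% and 4.94% in wild-type cells, and at 4.95% and 5.35%, 5.39% and 5.48%, and 6.19% and 6.85% in knockout cells. Treated knockout arrays lay above treated wild-type arrays, and no array of session 4 called miR-467b detected.

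The spread between replicates was the main feature of these miRNAs. Over the 14 tested members, the median absolute log2 difference between the 2 arrays of a group was 2.13 at 12 h and 2.80 at 24 h in wild-type cells, and 1.60 and 2.02 in knockout cells. Over all 176 tested miRNAs it was 0.26, 0.29, 0.17 and 0.39. In untreated cells the members' spread was smaller, at 0.45 in wild type and 0.11 in knockout, against 0.24 and 0.19 over all tested miRNAs. Replicate 2 was above replicate 1 for 13, 14, 14 and 13 of the 14 members in the 4 treated groups, but for 2 of 14 in each untreated group. Members at the floor on both untreated arrays, such as miR-467e* and miR-467g in both genotypes, show no difference there. They lower the untreated medians and count as not above. A log2 difference over 1 occurred for 12, 12, 11 and 12 members in treated groups, where 11.9%, 17.0%, 8.52% and 13.6% of all tested miRNAs had one. It occurred for 3 members in untreated wild type and 3 in untreated knockout, where 3.41% and 7.39% of all tested miRNAs had one. These were miR-466f-3p and miR-466g in both genotypes, miR-466i in wild type and miR-467a* in knockout, each lower on replicate 2.

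**Figure D2:**
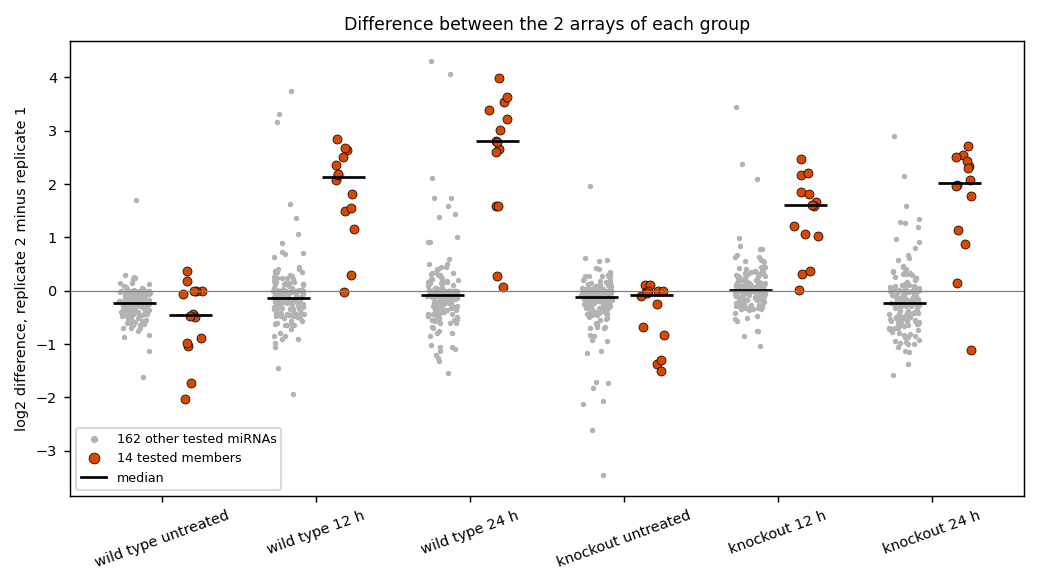
Log2 level on replicate 2 minus replicate 1 in each group, for the 14 tested members (orange) and the 162 other tested miRNAs (grey), with bars at the medians. In the 4 treated groups the members' medians lie between 1.60 and 2.80, while in untreated groups they lie at -0.45 and -0.07.

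Before scaling, replicate 2 was above replicate 1 for all of 12 members (the tested ones other than miR-466a-3p and miR-467b, a set chosen after their values were seen) in both treated wild-type groups, and for 11 of the 12 in both treated knockout groups. The exception was miR-669f, whose unscaled intensity was 71.6 and 50.7 in knockout cells at 12 h and 50.5 and 46.7 at 24 h, where the reference level was lower on replicate 2. The unscaled intensity of miR-466f-3p was 127 on the first and 503 on the second wild-type array at 12 h, and 49.95 and 205 at 24 h. In knockout cells it was 57.9 and 96.2 at 12 h and 29.2 and 74.3 at 24 h. All 34 probes of the 12 members were higher, after scaling, on replicate 2 than on replicate 1 of wild type at 12 h. Within a slide the sessions hold different experiments, so scan session and culture cannot be told apart.

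Since the 12 members were chosen for their shared pattern, the likeness among them is a description of that choice. Their pairwise Pearson r over the 12 arrays, on log2 levels, ran from 0.91 to 1.00 with a median of 0.96 over 66 pairs. Over the 8 treated arrays alone the lowest r was 0.94. On the 4 untreated arrays, r ran down to -0.98 with a median of 0.49 over 45 pairs, since several members were at the floor there. miR-466a-3p correlated with the 12 at 0.14 to 0.32 and miR-467b at -0.16 to 0.01, and the r between miR-466a-3p and miR-467b was -0.79. The arrays share slides, sessions and scaling, and miRNAs of alike sequence may bind the same probes, so these r values describe these arrays only.

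Among the 162 other tested miRNAs, 4 had r over 0.9 with the median of the 12 members: miR-574-3p (0.97), miR-1187 (0.96), miR-574-5p (0.95) and miR-877* (0.92). The median over those 162 was -0.24. miR-574-5p and miR-1187 are 91.3% and 82.6% U or G, while miR-574-3p, from the other arm of the miR-574 hairpin, is 81.8% C or A. On the first and second arrays, miR-574-5p stood at 33.9% and 55.5% in wild-type cells at 12 h against 15.3% and 10.6% untreated. miR-574-3p stood at 12.9% and 116% against 6.82% and 2.23% in the same groups. Neither miR-574-5p (log2 change 1.77 ± 0.62 SE, adjusted p = 0.0580) nor miR-1187 (2.25 ± 0.77, adjusted p = 0.0526) passed limma's test at 12 h in wild-type cells, and neither passed in the other treated groups.

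**Figure D3:**
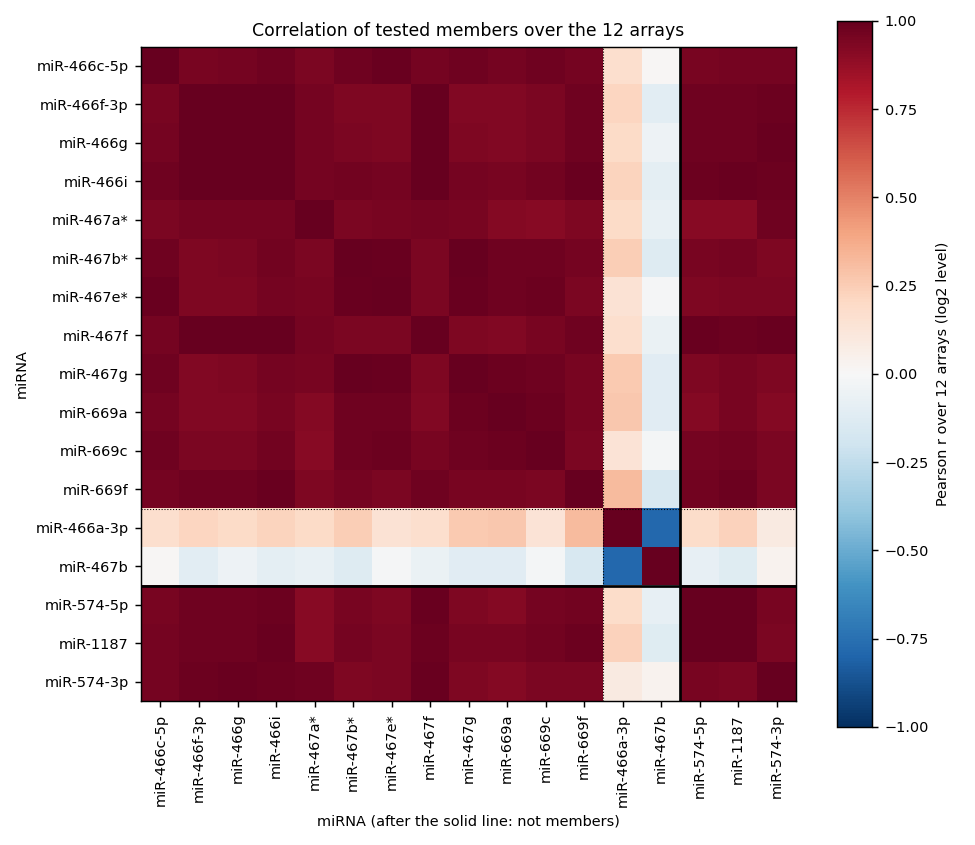
Pearson r between log2 levels of the 14 tested members and 3 other miRNAs over the 12 arrays. The first 12 members form a block of r from 0.91 to 1.00 that miR-574-5p, miR-1187 and miR-574-3p extend, and miR-466a-3p and miR-467b (after the dotted line) stand apart from it.

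Tunicamycin was compared with no treatment in each genotype with limma, which fits all 12 arrays and adjusts p-values over the 176 tested miRNAs by the Benjamini-Hochberg method. At 12 h in wild-type cells, none of the 14 members passed an adjusted p of 0.05, whereas 38.1% of all tested miRNAs did. The members' median log2 change was 2.36, with 13 of 14 above 0, against a median of -0.05 over all tested miRNAs. For 12 members both treated arrays lay above both untreated arrays (33.5% of all tested), and for miR-467b both lay below (39.8% of all tested). The 3 members that entered the test through wild type at 12 h alone had to be high there. Without them the median over the other 11 was 1.85, and 9 of 11 had treated arrays above untreated ones. Of these 11, miR-466c-5p, miR-466g and miR-669c were detected on both arrays in treated groups only, so the filter favoured a rise in them too. The smallest p-values belonged to miR-466f-3p, with a log2 change of 3.29 ± 1.37 (SE, adjusted p = 0.102), and miR-467f, with 2.35 ± 0.99 (adjusted p = 0.103). An unadjusted p under 0.05 was found for 3 members.

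Large log2 changes of members went uncalled. Of 12 members with a log2 change over 1 at 12 h in wild-type cells, 0 were called, while 19 of 25 other miRNAs with such a change were. The median SE was 1.21 for those members and 0.23 for those other miRNAs. With session as a random block, limma called 44.3% of all tested miRNAs. Among them were 7 of the 11 members that did not enter through wild type at 12 h alone, all higher (miR-466f-3p, miR-466g, miR-466i, miR-467f, miR-669a, miR-669c and miR-669f, adjusted p from 0.0278 to 0.0477). Of these 7, miR-466g and miR-669c entered through treated groups only, so their rise is no support. Untreated and treated arrays each fall in only 2 sessions, and the fit applies a single correlation of 0.504 to all miRNAs. Members' deviations within a slide correlated at 0.85 to 0.98, so their errors may be understated.

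**Figure D4:**
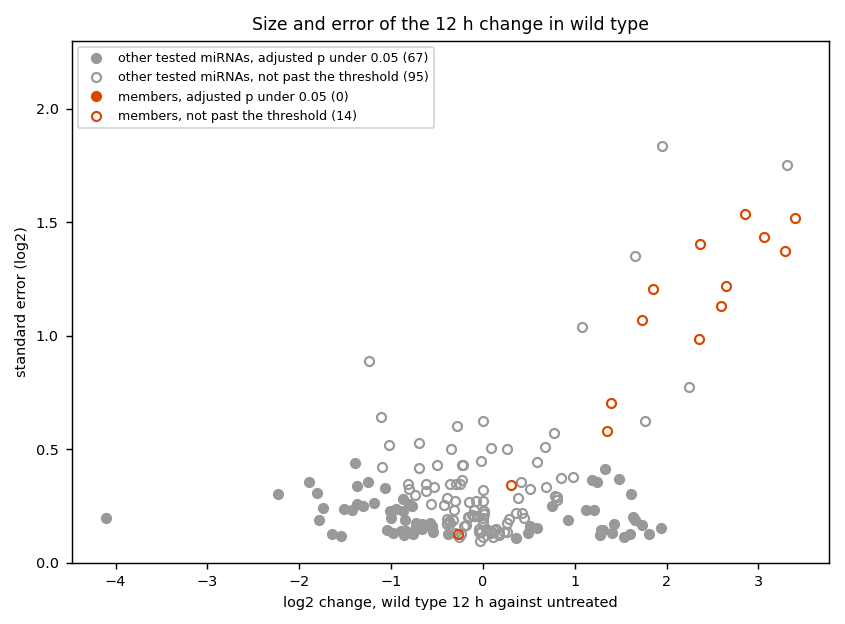
Log2 change between untreated and 12 h tunicamycin in wild-type cells against its standard error for the 176 tested miRNAs, with members in orange and filled points past an adjusted p of 0.05. The members with changes over 1 have standard errors of 0.58 to 1.54, and the filled points of other miRNAs lie at smaller errors.

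At 24 h in wild-type cells again 0 of 14 members were called by limma, and 0 had an unadjusted p under 0.05, against 43.2% called over all tested miRNAs. The median log2 change was 1.71, but treated arrays lay wholly above untreated ones for only miR-669a and miR-669c (27.8% of all tested). miR-466f-3p had a log2 change of 2.46 ± 1.37 (SE, adjusted p = 0.183), with overlapping arrays, and miR-669c had 2.17 ± 1.22 (adjusted p = 0.183). Without replicate 1 at 24 h, 3 members were called higher, namely miR-467f at 3.02, miR-669c at 3.68 and miR-669f at 1.70, with the lone array assumed to vary like the other groups (43.2% of all tested called). Over the 12 members that shared a pattern, the median log2 change was 1.75, or 3.29 without replicate 1 and 0.25 without replicate 2.

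In knockout cells 0 of 14 members were called at either time. At 12 h the median log2 change was 1.30 (all tested 0.25), 25.6% of all tested miRNAs were called, and no member had an unadjusted p under 0.05. For 11 members the treated arrays lay above the untreated ones (50.6% of all tested). miR-466i had a log2 change of 1.70 ± 1.13 (SE, adjusted p = 0.315) and miR-669f 0.86 ± 0.58 (adjusted p = 0.318). At 24 h the median was 1.23 (all tested 0.15), 30.7% of all tested miRNAs were called, and 1 member, miR-467b, had an unadjusted p under 0.05. Its log2 change was 0.34 ± 0.13 (SE, adjusted p = 0.0830), and miR-669a had 0.92 ± 0.70 (adjusted p = 0.405). Treated arrays lay above untreated ones for 5 members at 24 h (40.3% of all tested). The median of the 12 members, 1.35 at 12 h and 1.24 at 24 h, was 0.64 and 0.25 without replicate 2 and 2.34 and 2.37 without replicate 1. With the deposited log2 values, which were not scaled and covered 7 of the 12, it was -0.02 at 12 h and -1.26 at 24 h. The medians over all tested miRNAs in that setting were -0.47 and -0.62. With the software's total signal 7 and 5 of the 12 were above 0.

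Set out by session, the difference from untreated cells was larger on the second treated array of each group. For the 12 members with the shared pattern, the median log2 change against the untreated mean was 1.49 in session 3 and 3.62 in session 4 for wild type at 12 h. At 24 h it was 0.25 and 3.29. In knockout cells it was 0.64 and 2.34 at 12 h, and 0.25 and 2.37 at 24 h. In session 4 all 12 lay above both untreated arrays in each treated group, where 38.1% and 39.8% of all tested miRNAs did so in wild type at 12 h and 24 h, and 56.8% and 49.4% in knockout. In session 3 this held for 12 and 2 of the 12 in wild type (40.3% and 34.7% of all tested), and for 10 and 4 in knockout (55.7% and 53.4%). The 12 were picked for their shared pattern after their values were seen, and miR-467b*, miR-467e* and miR-467g entered through wild type at 12 h alone. These counts therefore describe that choice, and the shares over all tested miRNAs are given for scale only. The summed signal of all 39 members gave the same picture, at 1.25% and 5.73% of the mouse signal in wild type at 12 h and 0.594% and 4.52% at 24 h. It was 0.778% and 2.06% in knockout at 12 h, 0.494% and 2.33% at 24 h, and 0.288% to 0.593% on the untreated arrays.

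Knockout was then compared with wild type. In untreated cells 0 of 14 members were called by limma and 0 had an unadjusted p under 0.05, with 11.4% called over all tested miRNAs and a median of 0.00 for the members. miR-466a-3p had a log2 difference of -0.77 ± 0.34 (SE, adjusted p = 0.233), and miR-467b had 0.05 ± 0.13 (adjusted p = 0.956). At 12 h of tunicamycin 13 of 14 members were lower in knockout cells by their means, with a median log2 difference of -0.92 where that over all tested miRNAs was 0.23. Without the 3 members that entered through wild type at 12 h alone, 10 of 11 were lower, with a median of -0.72. Of those 11, miR-466a-3p, miR-466c-5p and miR-669a were detected on both arrays in wild-type groups only, so the filter favoured lower knockout values in them too. The median over the 12 members, -0.94, depended on single arrays. It was -2.00 without wild-type replicate 1, -1.68 without knockout replicate 2, -0.17 without knockout replicate 1 and 0.13 without wild-type replicate 2. In the main comparison only miR-467b passed the test, and it was higher, by 0.40 ± 0.13 (SE, adjusted p = 0.0406), with 38.1% of all tested miRNAs called. At 24 h miR-467b was higher by 0.54 ± 0.13 (adjusted p = 0.0128) and miR-466a-3p was lower, at -1.15 ± 0.34 (adjusted p = 0.0323), with 34.7% called over all and a members' median of -0.47 against 0.25. There the median of the 12 turned to 0.56 without knockout replicate 1 and to 1.02 without wild-type replicate 2. It turned to 0.11 with normexp background, where the median over all tested miRNAs was 0.29. In each of these settings 12 of 12 lay above 0. The median of the 12 was -1.97 without wild-type replicate 1 and -1.60 without knockout replicate 2.

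These 3 calls rest on faint signals. miR-467b was detected on 1 of 2 arrays in each treated group. miR-466a-3p was detected on 1 of 2 arrays in each 24 h group, and its knockout replicate 2 lay under the floor. It was detected on both arrays only in untreated and 12 h wild-type cells. It thus entered the test through wild type alone, and the filter favoured a lower knockout value. Leaving out each of the 12 arrays in turn ended the call of miR-467b at 12 h in 6 cases (adjusted p up to 0.143), namely without either 12 h array of either genotype or either untreated knockout array. At 24 h that call ended in 2 cases, without wild-type replicate 1 (0.40) or knockout replicate 2 (0.47). The call of miR-466a-3p ended in 5 cases (adjusted p up to 0.118), without either 24 h wild-type array, either untreated knockout array or knockout replicate 2 at 24 h, where it stood at -0.59. Scaling each array by all mouse miRNAs put the difference of miR-467b at 0.05 at 12 h and 0.22 at 24 h, neither called, and moved the median over all tested miRNAs at 12 h from 0.23 to -0.08. With normexp background the sign turned for miR-467b at 12 h (-0.66) and for miR-466a-3p at 24 h (0.20). The medians over all tested miRNAs in that setting were -0.49 at 12 h and 0.29 at 24 h. The epithelial markers detected on the treated knockout arrays move with the same contrasts, and their part in these differences was not tested.

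Within a scan session the genotypes can be set side by side. At 12 h, knockout minus wild type was below 0 for 13 of 14 members in both sessions, with a median log2 difference of -0.57 in session 3 and -1.15 in session 4. miR-466f-3p had -0.66 and -1.43. miR-467b* had -1.47 and -1.99 and miR-467g -1.43 and -1.82, but no knockout array detected either. miR-467b alone lay above 0, at 0.38 and 0.42. The filter favoured lower knockout values in miR-467b*, miR-467e* and miR-467g, tested through wild type at 12 h alone. It did so too in miR-466a-3p, miR-466c-5p and miR-669a, detected on both arrays in wild-type groups only. The count and the medians include these members and are a description only. With the software's total signal in place of the scaled intensities, 5 of the 12 members with the shared pattern were above 0 at 12 h, against 0 of 12. At 24 h the medians over the 14 by session were -0.01 and -0.85, with 7 and 13 of 14 below 0. With session as a fixed term, an analysis chosen after seeing the data, limma called 51.7% of all tested miRNAs at 12 h. It called 4 of the 11 members that did not enter through wild type at 12 h alone. miR-467b was higher, and miR-669a (-0.72 ± 0.17, SE, adjusted p = 0.0121), miR-467a* (-0.96 ± 0.28, adjusted p = 0.0259) and miR-466f-3p (-1.05 ± 0.34, adjusted p = 0.0363) were lower. miR-669a was detected on both arrays in wild-type groups only and entered the test through them, so its lower knockout value is no support. miR-467b*, miR-467e* and miR-467g also passed, but they entered the test only because they were detected in wild type at 12 h, so their lower knockout values are no support. At 24 h the same term left the calls of miR-467b and miR-466a-3p and added none (47.7% of all tested called).

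The difference between genotypes in the tunicamycin response was called by limma for 0 of 14 members at 12 h, with 0 at an unadjusted p under 0.05 and 24.4% of all tested miRNAs called. The members' median was -0.93 and that of all tested miRNAs 0.37. Without the 3 members that entered through wild type at 12 h alone, the median over the other 11 was -0.85. miR-467b had a response larger by 0.35 ± 0.18 in knockout cells (SE, adjusted p = 0.208) and miR-467b* one of -1.74 ± 2.03 (adjusted p = 0.601). With session as a fixed term 34.7% of all tested miRNAs were called, but none of the 11 members that did not enter through wild type at 12 h alone. miR-467b* and miR-467g passed, and both were tested only because wild type at 12 h detected them. Without wild-type replicate 2 at 12 h the median of the 12 turned from below 0 to 0.07. At 24 h again 0 were called, against 20.5% of all tested miRNAs, and 1 had an unadjusted p under 0.05. That member was miR-467b, at 0.49 ± 0.18 (adjusted p = 0.0964), and it passed with session as a random block (adjusted p = 0.0305, 36.9% of all tested called). miR-466a-3p had -0.38 ± 0.48 (adjusted p = 0.631). The median of the 12 at 24 h was -0.54, and it turned to 0.51 without knockout replicate 1 and to 0.92 without wild-type replicate 2. It turned to 0.17 with normexp background, where the median over all tested miRNAs was 0.37.

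Between 12 h and 24 h no member was called in either genotype, and 0 had an unadjusted p under 0.05 in limma, with 1.14% of all tested miRNAs called in the wild type and 0.568% in the knockout. The members' median log2 difference was -0.64 in wild-type cells, with 13 of 14 below 0, against a median of -0.13 over all tested miRNAs. The 3 members that entered through wild type at 12 h alone (miR-467b*, miR-467e* and miR-467g) had to be detected there. The filter thus favoured a fall in them. Without them the median over the other 11 was -0.55, with 10 of 11 below 0. By session the median over the 14 was -1.05 on the first arrays and -0.23 on the second. The median of the 12, -0.66, turned to 0.76 without wild-type replicate 1 at 24 h and to 0.38 without replicate 2 at 12 h, and it was -2.12 without replicate 2 at 24 h and -1.79 without replicate 1 at 12 h. In knockout cells the median of the members was -0.16, and that of the 12 turned to 0.83 without replicate 1 at 24 h and to 0.64 without replicate 2 at 12 h. miR-467b had 0.12 ± 0.13 in wild-type (SE, adjusted p = 0.940) and 0.26 ± 0.13 in knockout cells (adjusted p = 0.644). miR-467b*, a member that the filter favoured at 12 h, had -1.25 ± 1.43 in wild-type cells (adjusted p = 0.940). miR-466a-3p had -0.31 ± 0.34 in knockout cells (adjusted p = 0.877).

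Other miRNA groups give a frame for these families. The miR-290 cluster, which like Sfmbt2 is active in early embryo and trophoblast, had 0 to 3 of its 14 miRNAs detected per array and none that could be tested. Of 3 UG-repeat miRNAs outside the families, miR-574-5p and miR-1187 were tested and were not called by limma in any of the 4 tunicamycin comparisons. Of 8 other rodent or repeat-derived miRNAs 4 were tested. In wild-type cells 2 of them were called lower at 12 h (42 of all 176 tested) and 2 higher at 24 h (24 of 176). In knockout cells 1 was called higher at 12 h (38 of 176). At 24 h 2 were called higher (45 of 176) and 1 lower (9 of 176) there. miR-206, a muscle miRNA, had an r of 0.90 with the median of the 12 members, and the 4 muscle markers together stayed at or below 0.0452% of the mouse signal on each array.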

How the data were processed

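The authors deposited 1-colour scanner tables of spot intensity, and the submitters' processing notes name Agilent Feature Extraction 10.7.1.1. They also deposited log2 values of the software's total gene signal, used only as an alternative and without scaling to the reference level. Background-subtracted intensity was averaged over spots of a probe without marked outliers, summed over the probes of a miRNA, divided by the reference level, floored at 1.91% (log2 -5.71), and log2 was taken. Of 611 mouse miRNAs, 176 were tested, each detected on both arrays in 1 group or more, with limma 3.58.1 in R 4.3.3 (6 residual and 1.65 prior degrees of freedom). The number of arrays limits precision. A member at the floor shows no spread there. On simulated data for 12 h in wild type, 60% of changes of log2 1 and 90% of log2 2 were recovered, with 2.17% of calls false. The simulation drew noise independently for each array and placed the changes at random among all tested miRNAs. The members' median SE was 1.17 against 0.23 over all tested miRNAs, so these rates do not hold for the members.

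Deviations from group means of same-numbered arrays correlated at 0.48 to 0.91 within a slide (members 0.85 to 0.98) and at -0.38 to -0.05 between slides. Replicate numbers thus mark the scan session within a slide. The normexp alternative (offset 50) used median spot signals, since mean signals were not used here. Members and lists were chosen with earlier results of these data known. Levels were given for all tested members. Tests were given for up to 5 called members in each direction, or for the 2 smallest unadjusted p-values where none was called. Further values of members were chosen after they were seen.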

Additional observations from a re-analysis of the deposited data

Results flagged for a closer look

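miR-467b stood on opposite sides of its untreated mean in the genotypes, although none of its 4 changes under tunicamycin passed limma's test (adjusted p from 0.0830 to 0.694). All treated wild-type arrays lay below the mean of untreated wild-type cells and all treated knockout arrays above that of untreated knockout cells, so its response differed by 0.35 on the log2 scale at 12 h and by 0.49 at 24 h. limma's test of the difference itself did not pass at either time (adjusted p = 0.208 and 0.0964). At 12 h the sign of the difference turned with normexp background (-0.58) and with the deposited log2 values (-0.24). The medians over all tested miRNAs were -0.44 and -0.48 in those settings, against 0.37 in the main one.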

How the results depend on the processing

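With 12 arrays and 2 per group, signal over background and session limit what can be seen: most members are near the floor. Leaving out each array in turn gave 0 to 3 members called at 24 h in wild type, 0 to 2 for knockout against wild type at 12 h and at 24 h, and 0 in every other comparison. With the replicate number as a block, 4 members were called at 12 h in wild type (miR-467b*, miR-467g, miR-669a and miR-669c) and 2 at 24 h. It called 1 at 24 h in knockout and 1 for the 24 h response difference, and altered no other count. miR-467b* and miR-467g entered through wild type at 12 h alone and miR-669c through treated groups only, so their calls are no support. The share of all tested miRNAs called with this block is not given here. Same-numbered arrays did not deviate together between slides, so for treated against untreated cells this block joins arrays that share only a number. With session as a random block 8 were called at 12 h in wild type (44.3% of all tested), among them miR-467b*, miR-466g and miR-669c, which the filter favoured. It called 2 for knockout against wild type at 12 h and 1 for the 24 h response difference (36.9% of all tested for the latter). With session as a fixed term, chosen after seeing the data, 7 were called for knockout against wild type at 12 h (51.7% of all tested). For the 12 h response difference 2 were called, miR-467b* and miR-467g (34.7% of all tested). Of the 7, miR-467b*, miR-467e* and miR-467g entered through wild type at 12 h alone and miR-669a through wild-type groups only. Those calls are no support. A floor 2 times higher gave 1 at 24 h in knockout and 2 for knockout against wild type at 12 h (share of all tested not given here). For knockout against wild type at 12 h and at 24 h, 0 and 0 were called with scaling over all mouse miRNAs, quantile normalization, normexp background, the software total signal, the deposited log2 values or only miRNAs detected on all 12 arrays (where miR-467b and miR-466a-3p are not tested); without a filter 0 and 1 were. The summed share in untreated knockout cells was 0.426% over detected members only. Signs turned as follows, in log2, and the cause was not tested. The deposited values were not scaled to the reference level, and the median over all tested miRNAs moved with the setting too. For knockout against wild type at 12 h that median was 0.23 in the main setting, -0.49 with normexp background and -0.24 with the deposited values. With the deposited log2 values, miR-669c had -1.76 at 24 h in wild type, miR-466i -1.98 and miR-669f -0.022 at 12 h in knockout, miR-467b -0.44 and miR-669a -0.27 at 24 h in knockout, miR-466a-3p 1.29 for untreated knockout against wild type, and miR-467b -1.24 for 24 h against 12 h in wild type and -0.24 for the 12 h response difference. With the software total signal, miR-466i had -1.17 at 12 h and miR-467b -1.67 at 24 h in knockout, miR-467b -0.59 for 24 h against 12 h in wild type and miR-466a-3p 0.54 for that in knockout. With normexp background, miR-467b had -0.079 in untreated and -0.66 in 12 h knockout against wild type, -0.91 for 24 h against 12 h in wild type and -0.58 for the 12 h response difference, and miR-466a-3p had 0.20 for knockout against wild type at 24 h, 0.040 for 24 h against 12 h in knockout and 0.34 for the 24 h response difference. For untreated knockout against wild type, miR-467b had -0.10 with scaling over all mouse miRNAs, -0.19 with quantile normalization and -0.018 with the mean of log2 over probes. Quantile normalization gave miR-467b -0.0075 for 24 h against 12 h in wild type, and the higher floor gave miR-466a-3p 0.042 for that in knockout. Leaving out single arrays gave miR-467b -0.0052 to 0.11 for untreated knockout against wild type and -0.026 to 0.26 for 24 h against 12 h in wild type, where miR-467b* ran from -3.06 to 0.57, and gave miR-466a-3p -0.87 to 0.25 for 24 h against 12 h in knockout and -0.94 to 0.18 for the 24 h response difference.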
